A study of Homo sapiens with 21 samples.

Results

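PC-9 cells sorted for low or for high EGFR, both exposed to vorinostat, were compared by RNA sequencing, with 3 libraries in each arm. These 6 libraries were chosen by their labels out of the 21 of the series, and 12236 of the 20111 genes listed were tested. PC-9 is an EGFR-mutant non-small cell lung cancer (NSCLC) line with an activating EGFR deletion, which every group carried. The EGFR-low and EGFR-high populations were derived from it by 6 rounds of flow sorting on EGFR, so each population is a single derived line and the libraries are repeats of that line. Cells were exposed for 72 h to 1 µM vorinostat (also called SAHA) or to its vehicle DMSO, and polyadenylated RNA was sequenced. Alongside stood 6 DMSO libraries of the same populations from the same experiment and, from a separate experiment, 9 untreated libraries of parental, EGFR-low and EGFR-high cells. The study asked whether low EGFR expression is held in place epigenetically and can be shifted by a histone deacetylase (HDAC) inhibitor, and the comparison described here asks how the populations differed in the libraries labelled vorinostat. The study calls its RNA sequencing replicates biological, by which it means separate experiments, while the labels of these libraries give only a number from 1 to 3. Standard errors and p-values from limma measure the spread within groups over all 12 libraries of the vorinostat experiment. The DMSO libraries, also those that lay between the populations (below), thus enter them. For untreated cells they measure the spread within groups of the 9 untreated libraries.

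EGFR is a receptor tyrosine kinase that signals through the RAS-ERK cascade, and ERK activity induces its own brakes, the DUSP phosphatases and the Sprouty proteins. HDACs remove acetyl groups from histone tails and other proteins, and vorinostat blocks the zinc-dependent members. Type I interferon signals through a transcription factor complex with STAT2 and IRF9, which binds the interferon-stimulated response element in the promoters of interferon-stimulated genes, whose products restrict viruses and feed antigen presentation.

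Interferon-stimulated genes were the list with the largest share of members higher in EGFR-low cells, so promoters of 5 of them are printed, 4 that were higher and BST2, the only member of the list called lower. Each run is the 250 bases before the gene's start, read 5′ to 3′ on the gene's strand, from RefSeq on GRCh38.p14. Capitals mark the letters GAAANNGAA, the spaced repeat at the core of the interferon-stimulated response element, or TTCNNTTTC, the same motif on the other strand. The windows lie at chr11:313790-314039 (plus strand) for IFITM1, chr11:320861-321110 (minus strand) for IFITM3, chr1:1013247-1013496 (plus strand) for ISG15, chr10:89327747-89327996 (plus strand) for IFIT3 and chr19:17405631-17405880 (minus strand) for BST2.
IFITM1: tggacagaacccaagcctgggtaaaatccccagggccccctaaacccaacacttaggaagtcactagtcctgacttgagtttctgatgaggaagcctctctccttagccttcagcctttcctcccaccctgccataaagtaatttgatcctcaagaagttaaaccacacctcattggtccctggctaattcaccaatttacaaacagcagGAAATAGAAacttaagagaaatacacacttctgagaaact
IFITM3: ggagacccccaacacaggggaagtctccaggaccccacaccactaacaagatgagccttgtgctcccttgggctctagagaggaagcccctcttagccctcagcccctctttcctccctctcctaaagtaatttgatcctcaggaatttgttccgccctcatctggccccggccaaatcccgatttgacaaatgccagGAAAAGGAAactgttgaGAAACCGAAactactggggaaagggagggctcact
ISG15: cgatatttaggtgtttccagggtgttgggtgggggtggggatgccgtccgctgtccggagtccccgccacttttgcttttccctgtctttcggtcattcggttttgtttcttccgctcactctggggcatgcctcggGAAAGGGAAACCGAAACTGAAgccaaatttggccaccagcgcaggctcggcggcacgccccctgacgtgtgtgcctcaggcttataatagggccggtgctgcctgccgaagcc
IFIT3: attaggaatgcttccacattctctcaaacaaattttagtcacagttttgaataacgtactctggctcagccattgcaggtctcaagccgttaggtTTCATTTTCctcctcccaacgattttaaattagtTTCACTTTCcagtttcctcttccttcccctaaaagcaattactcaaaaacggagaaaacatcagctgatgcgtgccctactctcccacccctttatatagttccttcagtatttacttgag
BST2: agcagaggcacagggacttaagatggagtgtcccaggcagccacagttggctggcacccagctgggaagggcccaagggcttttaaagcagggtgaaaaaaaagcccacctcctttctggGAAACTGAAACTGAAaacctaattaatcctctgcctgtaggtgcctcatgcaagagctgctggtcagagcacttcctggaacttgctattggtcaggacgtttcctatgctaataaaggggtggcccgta
ISG15 held 3 overlapping matches, IFITM3, IFIT3 and BST2 held 2 each, and IFITM1 held 1. Among the tested members of the interferon-stimulated list with a promoter in the table, 16 of 24 (66.7%) held the motif on either strand. It was in 488 of 9251 promoters of tested genes (5.28%), in 5.98% of those called higher in EGFR-low cells, in 4.68% of those called lower, and in 1927 of all 27305 promoters (7.06%). A match is a description of the letters in this window, and BST2, with 2 matches, was not among the members called higher.

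Levels are given as FPKM, fragments scaled to transcript length and to all mapped fragments, and a difference is the mean of EGFR-low minus that of EGFR-high libraries on the log2(FPKM + 1) scale, which understates the change of low genes. A gene was called when its limma p-value, adjusted over all genes tested by Benjamini-Hochberg, was under 0.05. The FPKM of the 6 libraries summed to 522688 to 582866. Sequencing depth is unknown from these values, and intervals from counting are left out. Genes were named by a rule (the targets of the study, the largest differences overall and up to the 4 largest called in each list), and any other gene named below was chosen after its values were seen.

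The libraries did not all sit with their group. Library 1 of both vorinostat groups stood apart from libraries 2 and 3. In EGFR-high cells 931 genes in library 1 were more than 1 log2 unit from the mean of the other replicates, against 201 and 225 for libraries 2 and 3, and in EGFR-low cells the numbers were 338, 36 and 38. Mitochondrial genes held 24.2% and 22.2% of the FPKM in library 1 of EGFR-high and EGFR-low cells, against 7.27 to 12.4% in the other 4. Libraries 2 and 3 resembled their DMSO counterparts. In EGFR-low cells 8 and 2 genes were off the DMSO mean by more than 1 log2 unit, against 413 for library 1. In EGFR-high cells the numbers were 21 and 74, against 716 for library 1. That DMSO mean was of EGFR-low DMSO libraries 2 and 3 and of EGFR-high DMSO libraries 1 and 2, without the libraries named next. DMSO library 1 of EGFR-low cells and DMSO library 3 of EGFR-high cells lay between the populations. The DMSO libraries with the highest mitochondrial share, EGFR-low 3 (16.7%) and EGFR-high 1 (18.6%), were not those that lay between the populations. The part of these features in the results was not tested, and counts are also given without library 1 of both vorinostat groups. Libraries are called vorinostat as labelled, and whether libraries 2 and 3 had been exposed as their labels say was not tested.

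The populations under vorinostat were far apart, and the position of each library along that axis is shown by 44 genes on the EGFR-low side and 80 on the EGFR-high side. These were picked for their levels in vorinostat libraries 2 and 3 (at least 20 FPKM on their own side and at most 1 on the other), so those 4 libraries are high or low by choice. Against them, the EGFR-low-side genes stood at a median of 83.3% in EGFR-low library 1 and 2.89% in EGFR-high library 1. In DMSO, they stood at 70.2, 101.7 and 94.8% in EGFR-low cells and at 0.141, 0.127 and 24.4% in EGFR-high cells. In all 9 untreated libraries, untreated EGFR-low cells included, they were at most at 0.0186%. The EGFR-high-side genes were at 54.2, 59.7 and 65.1% in untreated EGFR-low cells, against 0.343 to 0.473% in the vorinostat EGFR-low libraries. On these genes the untreated EGFR-low libraries were therefore close to EGFR-high and parental libraries, and not to the vorinostat libraries labelled EGFR-low.

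**Figure D1:**
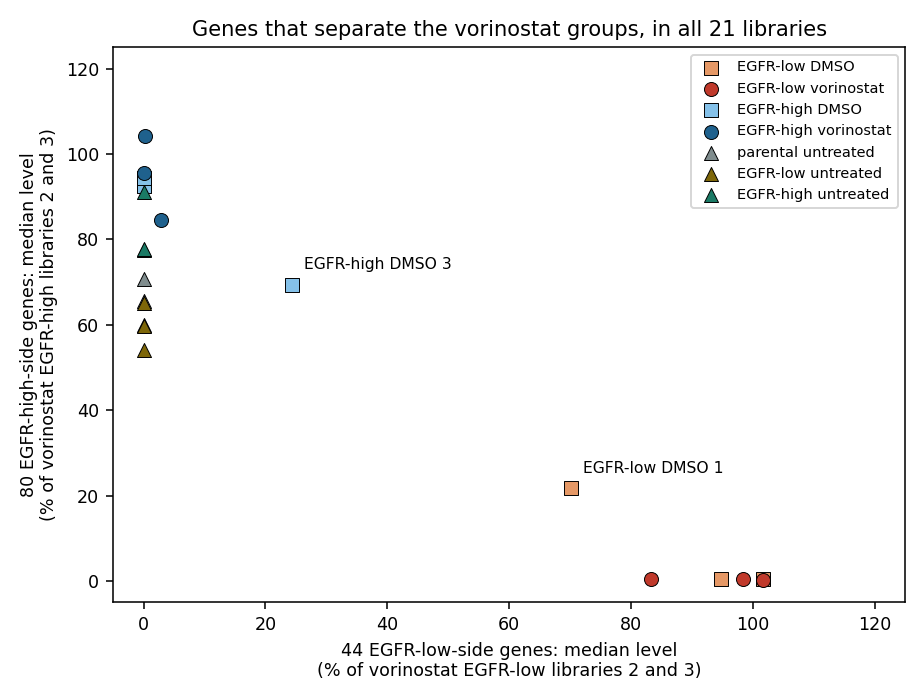
Each point is 1 of the 21 libraries. The x axis gives the median level of the 44 EGFR-low-side genes as a percent of vorinostat EGFR-low libraries 2 and 3, and the y axis that of the 80 EGFR-high-side genes as a percent of vorinostat EGFR-high libraries 2 and 3. Vorinostat and DMSO libraries of a population lie together apart from EGFR-low DMSO 1 (70.2 and 21.7%) and EGFR-high DMSO 3 (24.4 and 69.4%), while all 9 untreated libraries lie at the left, near 0 on the x axis.

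Correlation across the 12236 genes gave the same order. Vorinostat EGFR-low libraries correlated with each other at 0.977 to 0.996 and with vorinostat EGFR-high libraries at 0.787 to 0.808. Across the 11118 genes tested in both experiments, they correlated with untreated EGFR-low libraries at 0.754 to 0.798 and with untreated EGFR-high libraries at 0.764 to 0.799. Vorinostat EGFR-high libraries correlated with untreated EGFR-high libraries at 0.889 to 0.952. The first principal component of the 12 libraries of the vorinostat experiment held 82.5% of the variance and separated the populations, and the second held 6.53%. The untreated libraries were made and normalized in another experiment, and that difference cannot be told apart from a difference between the cells.

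EGFR itself went with the labels. It stood at 19.7, 16.1 and 18.2 FPKM in vorinostat EGFR-low cells and at 196, 101 and 207 FPKM in vorinostat EGFR-high cells. The groups did not overlap. The difference of -3.09 had a standard error of 0.349 and a limma adjusted p of 4.55e-05. A two-sided exact permutation test gave p = 0.1, which is the smallest value that 3 against 3 libraries allow. In DMSO the difference was -2.13 and in untreated cells -2.23 (limma adjusted p = 0.0110). The difference under vorinostat exceeded that under DMSO by -0.96, with an unadjusted limma p of 0.0778, which did not pass the test. The DMSO value includes EGFR-low DMSO 1 and EGFR-high DMSO 3, which lay between the populations, and a value without them is not given here.

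Of the 12236 genes tested, 7222 (59%) were called between vorinostat-treated EGFR-low and EGFR-high cells. Of all genes, 4427 (36.2%) were higher and 2795 (22.8%) were lower in EGFR-low cells. The 3 libraries of each group did not overlap for 4568 genes higher (37.3%) and 2874 lower (23.5%). With more than every other gene called, membership of the called set says little of a single gene, and gene groups are read against these shares. The sizes set genes apart more clearly. A difference above 4 was found for 47 genes and below -4 for 115, while the median absolute difference was 0.54. The median difference over all genes was 0.16. Median-of-ratios scaling brought that median to 0.00 and the share of calls that were higher from 61.3 to 50.5%, and quantile normalization gave 53.7%, so the excess of higher over lower calls depends on the scaling. Without library 1 of both groups 7405 genes were called, 4335 higher and 3070 lower, and 6604 of the 7222 (91.4%) kept their call and direction. In these bulk samples, a lower share of cells that make an RNA and less of that RNA per cell cannot be told apart.

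**Figure D2:**
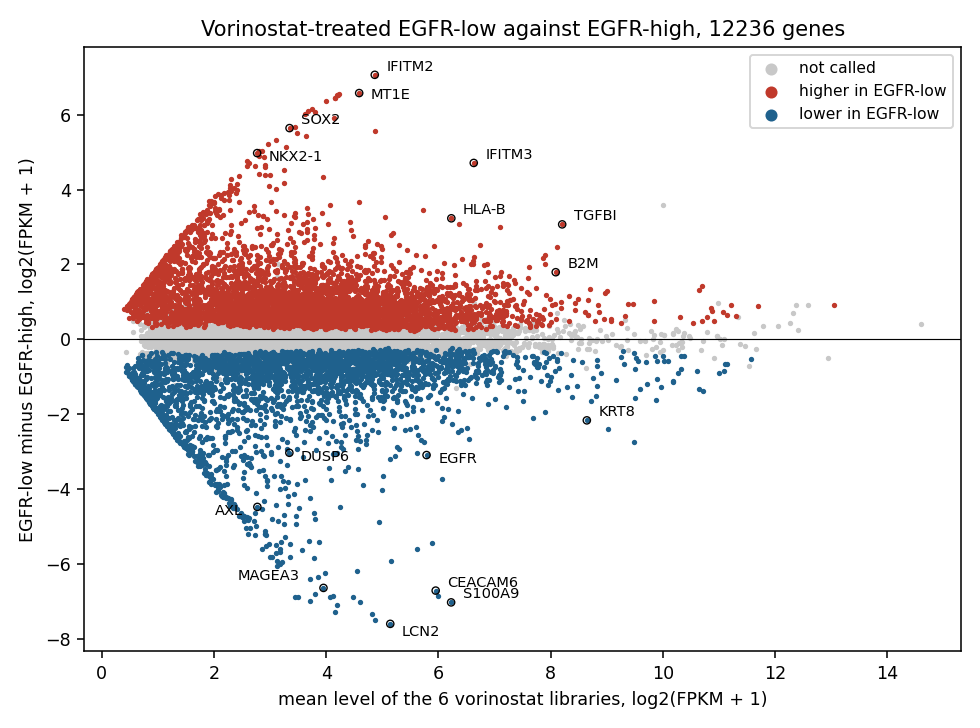
Each point is a gene, with its mean level over the 6 vorinostat libraries on the x axis and the difference between EGFR-low and EGFR-high cells on the y axis, both in log2(FPKM + 1). Red points (4427) were called higher and blue points (2795) lower in EGFR-low cells, and grey points were not called. Named genes run from IFITM2 at 7.06 to LCN2 at -7.60.

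Many genes were on in 1 population and silent in the other. In all 3 libraries, 61 genes were at 5 FPKM or more in EGFR-low cells and at 0.5 or less in EGFR-high cells, and 129 genes showed the reverse. In libraries 2 and 3 alone the numbers were 168 and 163. Of the 168, 148 were also silent in untreated EGFR-low cells and 0 were on there, whereas 102 of the 163 were on in untreated EGFR-low cells and 2 were silent. The genes of both sets had CpG-poor promoters more often than tested genes at large. A ratio of observed to expected CpG above 0.6 was found in 60 of 113 promoters (53.1%) of the first set and 56 of 115 (48.7%) of the second, against 81.1% of tested genes. Over all 27305 promoters, of tested genes or not, the share was 47.4%. The sets were thus below tested genes but not below all promoters.

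The 12 genes with the largest difference towards EGFR-low cells were IFITM2, MT1E, XAGE1A to XAGE1E, IFITM1, CT45A2, CT45A4, CT45A6 and UBE2M. IFITM1 and IFITM2 encode interferon-induced membrane proteins that block virus entry. IFITM2 stood at 255, 409 and 364 FPKM in EGFR-low cells and at 6.99, 0.416 and 0.413 FPKM in EGFR-high cells (difference 7.06, standard error 1.27, limma adjusted p = 0.000564). It was high in every EGFR-low library, and library 1 was the highest of the EGFR-high libraries. MT1E, a metal-binding metallothionein, read 380.4, 180.1 and 186 FPKM against 11.7, 0.173 and 0 FPKM, a difference of 6.58 (limma adjusted p = 0.00120). In the 6 untreated libraries of both populations MT1E was listed at 0. XAGE1A, a cancer-testis antigen gene, read 215, 133 and 154 FPKM against 5.07, 0.0430 and 0.0861 FPKM, a difference of 6.44 (limma adjusted p = 0.000544). The XAGE1 genes are near-identical copies of each other, as are the CT45A genes, so how the reads were split among the copies is uncertain and each family is better read as a single signal. UBE2M, an E2 enzyme of neddylation, read 110.1, 110.4 and 122 FPKM against 2.51, 0.274 and 0.112 FPKM, and was listed at 0 in the untreated libraries of both populations.

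The 12 genes with the largest difference the other way were LCN2, UCHL1, SULF2, TIMP3, ANO1, S100A9, ANPEP, KRT13, VCX3A, VCX3B, UGT1A6 and MAL. LCN2, a secreted iron-siderophore binder, stood at 1.33, 1.72 and 1.57 FPKM in EGFR-low cells and at 564, 506 and 412 FPKM in EGFR-high cells (difference -7.60, standard error 1.1, limma adjusted p = 0.000139). UCHL1, a deubiquitinase, read 1.52, 1.05 and 0.932 FPKM against 268, 511 and 436 FPKM (difference -7.51). TIMP3, a matrix-bound inhibitor of metalloproteinases, read 0.358, 0.521 and 0.410 FPKM against 124, 296 and 294 FPKM (difference -7.28). In each of these genes all 3 EGFR-low libraries, library 1 included, were near silent. The untreated EGFR-low libraries were not, with LCN2 at 198, 152 and 113 FPKM and UCHL1 at 525, 721 and 571 FPKM. ANO1, a calcium-activated chloride channel, differed by -7.10, SULF2, an extracellular heparan sulfate sulfatase, by -7.32, and ANPEP, a membrane aminopeptidase, by -7.01. VCX3A was listed at 0 in all 3 EGFR-low libraries and read 137, 122 and 96.4 FPKM in EGFR-high cells. VCX3A and VCX3B are close copies, and their split is uncertain.

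**Figure D3:**
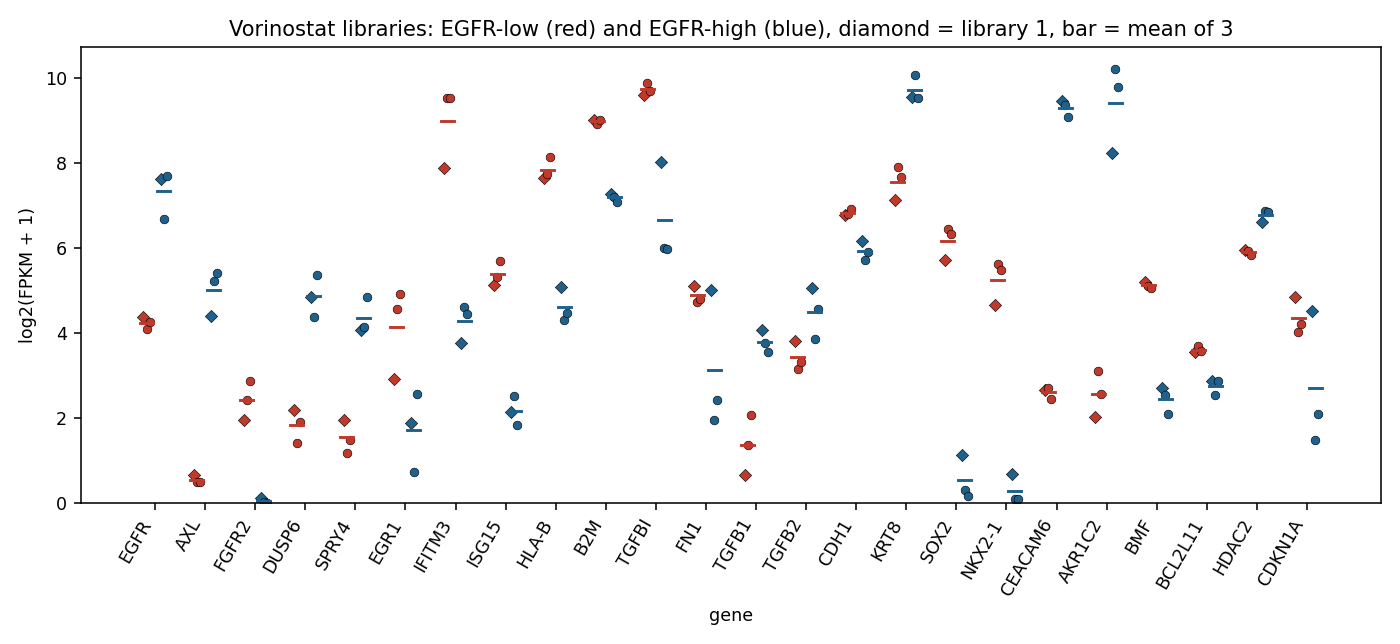
Levels of 24 genes in the 6 vorinostat libraries, in log2(FPKM + 1) on the y axis, EGFR-low in red and EGFR-high in blue. Diamonds are library 1, circles libraries 2 and 3, and bars the mean of 3. EGFR, AXL, DUSP6 and CEACAM6 lie higher in every EGFR-high library, IFITM3, ISG15, HLA-B and SOX2 in every EGFR-low library, and FN1 and CDKN1A overlap because EGFR-high library 1 lies near the EGFR-low libraries.

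Among ERBB and other receptor tyrosine kinases, 6 of 18 tested genes were higher in EGFR-low cells and 5 were lower, with a median difference of 0.28. Those counts lay near the shares of all genes, 36.2% and 22.8%. AXL, a receptor linked to resistance against EGFR inhibitors, read 0.561, 0.404 and 0.390 FPKM in EGFR-low cells against 20.2, 36.2 and 41.5 FPKM in EGFR-high cells. That is a difference of -4.47 (standard error 0.686, limma adjusted p = 0.000202), larger than that of EGFR. DDR1, a collagen receptor, was lower by -2.34, with ROR1 and EPHA2. FGFR2 (difference 2.37) and the neurotrophin receptor NTRK2 (2.36) were higher in EGFR-low cells, as was the hepatocyte growth factor receptor MET at 132, 60.2 and 58.6 FPKM against 22.5, 22.5 and 26.1 FPKM (difference 1.67, limma adjusted p = 0.000265). The EGFR partners ERBB2 (0.56) and ERBB3 (0.25) were not called. Of the 6 EGFR-family ligands tested, HBEGF (difference -3.65) and TGFA (-1.28) were lower, and NRG1, which binds ERBB3 and ERBB4, was higher (1.51). HBEGF read 1.86, 1.40 and 1.55 FPKM against 35.1, 13.5 and 65.2 FPKM. AREG, at 38.1, 11.3 and 12.9 FPKM against 17.7, 1.36 and 4.99 FPKM, overlapped between the groups and was not called (difference 1.55, limma adjusted p = 0.0586), but was called with the replicate block (limma adjusted p = 0.0275) and without library 1 of both groups (1.80, limma adjusted p = 0.00908).

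ERK feedback and immediate target genes were mostly lower in EGFR-low cells. Of 22 tested, 14 were lower and 3 higher, with a median difference of -1.15, against 22.8% and 36.2% of all genes. DUSP6, the phosphatase that inactivates ERK, read 3.55, 1.65 and 2.72 FPKM against 27.5, 19.6 and 40.4 FPKM (difference -3.03, standard error 0.382, limma adjusted p = 6.51e-05). SPRY4, a Sprouty inhibitor of the pathway, read 2.87, 1.25 and 1.80 FPKM against 15.9, 16.6 and 27.8 FPKM (difference -2.82). No EGFR-low library reached the lowest EGFR-high library in either gene. EMP1 (-2.65) and DUSP4 (-2.44) were lower too. The 3 members that were higher were EGR1, JUNB and SPRED2, of which only EGR1 kept its call under median-of-ratios scaling. EGR1, an immediate early transcription factor, read 6.58, 22.5 and 29.1 FPKM against 2.65, 0.653 and 4.90 FPKM (difference 2.41, limma adjusted p = 0.00678). In untreated cells DUSP6 was at 39.6, 27.1 and 26.6 FPKM in EGFR-low and at 20.6, 18.3 and 27.5 FPKM in EGFR-high cells and was not called (difference 0.47, limma adjusted p = 0.50).

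Of 32 interferon-stimulated genes tested, 29 (against 36.2% of all genes) were higher in EGFR-low cells and 1 was lower, with a median difference of 2.10. IFITM3, the family member that restricts virus in endosomes, read 235, 744 and 738 FPKM against 12.7, 23.3 and 20.7 FPKM (difference 4.71, standard error 0.731, limma adjusted p = 0.000219). IFITM1 read 70.6, 216 and 197 FPKM against 1.95, 0.366 and 0.331 FPKM (difference 6.38). Library 1 was the lowest EGFR-low library in both genes and still lay far above every EGFR-high library. ISG15, a ubiquitin-like modifier, read 34.0, 38.9 and 50.6 FPKM against 3.37, 4.72 and 2.57 FPKM (difference 3.22, limma adjusted p = 4.14e-05). IFIT3, which binds viral RNA complexes, read 23.2, 21.1 and 21.7 FPKM against 1.17, 1.75 and 1.19 FPKM (difference 3.29). IFI44 differed by 4.04. Among transcription factors that carry the signal, IRF9 was higher by 2.67, IRF7 by 1.73 and STAT2 by 0.45. BST2, the tetherin that retains budding virus, was the 1 member called lower, at 1.1, 2.52 and 3.80 FPKM against 3.60, 5.94 and 4.29 FPKM, and its groups overlapped (difference -0.75, limma adjusted p = 0.0262). The BST2 call was lost with only the 6 libraries fitted (limma adjusted p = 0.0784). GBP1 and GBP2, which respond mainly to interferon gamma, were not called, with differences of 0.37 and -0.10. In untreated cells 20 members passed the filter, of which GBP1 (1.1) and GBP2 (1.05) were higher in EGFR-low cells and BST2 (-1.78) and OAS3 (-1.28) lower. Over all genes tested in untreated cells, 3.81% were called. In DMSO 28 members were called higher and 0 lower, against 3807 higher and 2527 lower of all 12236 genes.

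MHC class I and antigen processing genes moved the same way in 18 of 26 cases, with 3 lower and a median difference of 0.95. Of all genes 36.2% were higher and 22.8% lower. HLA-B, a classical heavy chain, read 199.7, 212 and 283 FPKM against 32.7, 18.7 and 21 FPKM (difference 3.23, standard error 0.510, limma adjusted p = 0.000241). B2M, the shared light chain, read 519, 485 and 514 FPKM against 154, 147 and 136 FPKM (difference 1.79). The EGFR-low libraries were tightly grouped for B2M and lay well above every EGFR-high library. The immunoproteasome subunit PSMB9 was higher by 2.88 and the peptide transporter subunit TAP1 by 1.79. HLA genes share sequence, and how reads were divided among them is uncertain. The 3 lower members were MICB, a stress ligand of the NKG2D receptor (-2.50), PDCD1LG2 (-0.64) and the chaperone CALR (-0.55). CD274, which encodes PD-L1, was not called (difference -0.05). Of 14 cytokines and chemokines, 6 were higher, among them CCL28 (2.42), CCL2 (2.21) and IL24 (2.85), and 4 were lower, CXCL16 (-2.74), IL11 (-1.25), LIF (-1.01) and CSF1 (-0.98). IL24 rested largely on EGFR-low library 1, which read 39.7 FPKM against 3.63 and 3.58 FPKM in libraries 2 and 3, and without that library the difference was 1.80 and still called.

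TGFβ signals through receptor serine kinases and SMAD proteins, is stored in the matrix by latent binding proteins and is released by integrins containing αV. Of 29 ligands, binding proteins, receptors and SMADs, 6 were higher and 14 lower in EGFR-low cells, with a median difference of -0.45. Over all genes 36.2% were higher and 22.8% lower. TGFB1 read 0.560, 1.57 and 3.21 FPKM against 15.7, 12.6 and 10.8 FPKM (difference -2.44, standard error 0.332, limma adjusted p = 9.58e-05). TGFB2 read 13.1, 7.93 and 9.01 FPKM against 32.2, 13.5 and 22.7 FPKM (difference -1.06, limma adjusted p = 0.00801), with no overlap although EGFR-low library 1 lay just under EGFR-high library 2. TGFB3, low in both, was higher in EGFR-low cells at 1.60, 2.03 and 1.93 FPKM against 0.484, 0.386 and 0.308 FPKM (difference 1.03). INHBA, the activin A subunit, was lower by -4.73, the BMP antagonist NOG by -4.22, BMP4 by -3.19 and the latent binding protein LTBP2 by -2.74. LTBP1 was not called (difference -0.56, limma adjusted p = 0.124), but was called lower without EGFR-high library 2 (-0.80, limma adjusted p = 0.0438). ID2, a BMP-responsive transcriptional regulator, was higher by 2.97. The receptors TGFBR1 (-0.04) and TGFBR2 (0.16) were not called.

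Targets of TGFβ went mostly the same way, with 12 of 21 lower and 5 higher in EGFR-low cells and a median difference of -0.55. Of all genes 22.8% were lower and 36.2% higher. PMEPA1, a feedback inhibitor of the pathway, read lower by -2.74 and the actin-binding TPM1 by -2.36. TGFBI, a secreted matrix protein, was the largest of the 5 exceptions, at 780.4, 953 and 836 FPKM against 259.9, 62.9 and 62.2 FPKM (difference 3.07, standard error 0.584, limma adjusted p = 0.000841). The others were BHLHE40 (1.61), ITGA5 (1.00), ACTA2 (0.74) and JUNB (0.72), and the calls of ACTA2 and JUNB were lost under median-of-ratios scaling. FN1, the fibronectin gene, read 33.6, 25.7 and 27.0 FPKM against 31.2, 2.86 and 4.33 FPKM, and its groups overlapped because EGFR-high library 1 was high (difference 1.76, limma adjusted p = 0.0382). The FN1 call was lost in 9 of its 18 alternatives. It was 2.59 (limma adjusted p = 0.00160) without library 1 of both groups, 1.18 (limma adjusted p = 0.158) without EGFR-high library 2 and 1.41 (limma adjusted p = 0.130) without EGFR-high library 3. In untreated cells FN1 differed by 2.78, at 78.3, 22.2 and 76.8 FPKM in EGFR-low against 8.47, 3.94 and 8.50 FPKM in EGFR-high cells.

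Of fibronectin and matricellular genes, 6 of 14 were higher and 5 lower, against 36.2% and 22.8% of all genes. SPARC, a collagen-binding glycoprotein, was higher at 10.5, 13.7 and 15.8 FPKM against 0.425, 0.253 and 0.194 FPKM (difference 3.46). FBLN1 (-6.0), OLFML3 (-5.81), the calcification inhibitor MGP (-5.19), SPP1, osteopontin (-4.94), and THBS1, thrombospondin (-1.96), were lower. OLFML3 and MGP were also lower in untreated EGFR-low cells, by -6.99 and -5.49. Of 19 collagens and laminins, 0 were higher and 11 lower (COL17A1, at 0.97, was called higher with the replicate block or with only the 6 libraries fitted), with a median difference of -0.97 and values such as -4.77 for LAMA4, -3.97 for LAMB1 and -2.45 for COL6A2. COL1A1, which was under 5 FPKM in all 6 libraries, was not called (difference 0.06). In the 14 integrins tested, 2 were higher and 6 lower. ITGAV, the αV chain, read 21.5, 20.3 and 22.4 FPKM against 17.3, 11.3 and 14.2 FPKM (difference 0.57, limma adjusted p = 0.00545), a call lost under median-of-ratios scaling (0.40, limma adjusted p = 0.0514). ITGB3, which pairs with αV, read 7.38, 2.98 and 2.37 FPKM against 6.79, 1.05 and 1.38 FPKM and was not called (difference 0.52, limma adjusted p = 0.377). Without EGFR-high library 1, ITGB3 was called (1.13, limma adjusted p = 0.0259), as it was with 4 libraries left out, namely library 1 of both vorinostat groups, EGFR-low DMSO 1 and EGFR-high DMSO 3 (0.73, limma adjusted p = 0.00389). ITGA5, the fibronectin receptor chain (1.00), was the other integrin called higher, and the laminin receptor chains ITGB4 (-2.92) and ITGA6 (-2.48) and the collagen receptor chain ITGA2 (-2.34) led those lower. ITGB8, another partner of αV, differed by -1.47, and by -0.69 (still called) without library 1 of both groups.

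Epithelial genes were called at about the background shares of 36.2% higher and 22.8% lower, with 10 of 25 tested higher in EGFR-low cells and 5 lower and a median difference of 0.40. The 14 mesenchymal genes tested had 3 higher and 8 lower with a median of -1.42. CDH1, the gene of E-cadherin, read 108, 111 and 121 FPKM against 70.9, 51.7 and 58.6 FPKM (difference 0.91, standard error 0.165, limma adjusted p = 0.000631). The tight junction gene CLDN3 was higher by 2.31 and the desmosomal PKP3 by 1.94, while CLDN1 (-4.85), RAB25 (-3.45), OVOL1 (-1.87), CDS1 (-1.13) and ST14 (-0.65) were lower. Of the mesenchymal list, AXL, S100A4 (-3.76) and TCF4 (-2.89) were among those lower, SPARC, SNAI1 (2.18) and FN1 were higher, and VIM, the vimentin gene, was not called (difference 1.28, limma adjusted p = 0.184). VIM was called without library 1 of both groups (2.09, limma adjusted p = 0.0164). Of the 11 contractile genes, 4 were higher and 4 lower, against the same background shares. ACTA2, smooth muscle actin, read 1.73, 1.82 and 2.06 FPKM against 0.810, 0.840 and 0.527 FPKM (difference 0.74, limma adjusted p = 0.0370). The groups did not overlap for ACTA2, but the call was lost in 10 of its 17 alternatives, among them each of the 6 that left out 1 vorinostat library, with differences of 0.65 to 0.79. MYL9, a myosin light chain (2.64), its kinase MYLK (2.22) and CALD1 (0.84), whose call was lost under median-of-ratios scaling, were the others higher, and TPM1, CNN3 (-2.08), ACTN1 (-0.86) and TAGLN (-0.50) were lower.

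Of 14 keratins tested, 9 were lower in EGFR-low cells and 1 higher, with a median difference of -1.91. Over all genes 22.8% were lower and 36.2% higher. KRT8, a keratin of simple epithelia, read 138, 238 and 201 FPKM against 759, 1079.8 and 736 FPKM (difference -2.16, limma adjusted p = 4.43e-05). KRT13 (-6.99), KRT23 (-5.60) and KRT5 (-4.25), keratins of stratified or glandular epithelia, were lower by more. KRT7, the keratin used to mark lung adenocarcinoma, was at 551, 551 and 527 FPKM against 698, 593 and 525 FPKM and was not called (difference -0.15). KRT86 was the 1 keratin called higher (1.12), a call lost under quantile normalization. Among 16 genes of epithelial defense and complement, 11 were lower (against 22.8% of all genes), led by LCN2, S100A9, PI3 (-5.60) and WFDC2 (-5.40). S100A9, a calprotectin subunit, read 10.3, 4.67 and 3.40 FPKM against 1399, 732 and 604 FPKM. The complement regulators CFI (3.82) and CD55 (1.51) were among the 3 defense genes called higher.

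Lineage transcription factors changed in both directions. NKX2-1, the master regulator of distal lung identity, read 24.1, 48.7 and 43.8 FPKM in EGFR-low cells against 0.588, 0.0617 and 0.0674 FPKM in EGFR-high cells (difference 4.97, standard error 0.745, limma adjusted p = 0.000173). SOX2, a factor of airway and stem cells, read 51.4, 86.4 and 79.9 FPKM against 1.17, 0.230 and 0.118 FPKM (difference 5.64). Both were high in every EGFR-low library and near silent in every EGFR-high library, and both were near silent in the untreated EGFR-low libraries, with NKX2-1 at 0.0291, 0.0690 and 0.0161 FPKM. FOXA2, an endodermal pioneer factor, was higher at 23.7, 23.5 and 23.5 FPKM against 0.540, 0.0917 and 0.0323 FPKM (difference 4.35), whereas its relative FOXA1 was lower (-3.0), as was SOX9 (-2.48). The basal cell factor TP63 was higher by 2.11. Over the lung lineage list, 7 of 12 tested were higher and 2, SOX9 and SLPI (-1.88), lower, against 36.2% and 22.8% of all genes. The surfactant genes SFTPA1, SFTPA2, SFTPB, SFTPC and SFTPD did not pass the filter. Of the gastric and mucinous list, 7 of 10 tested were lower and only FOXA2 was higher. CEACAM6, a cell adhesion glycoprotein, read 5.26, 5.48 and 4.45 FPKM against 703, 657 and 545 FPKM (difference -6.71). HOX genes, which record position along the body axis, were lower in 10 of 16 cases and higher in 4. HOXB7 differed by -4.53, HOXA3 by -4.52, and the 4 that were higher were HOXA10 (2.29), HOXC4 (1.63), HOXD4 (1.04) and HOXC6 (0.81).

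**Figure D4:**
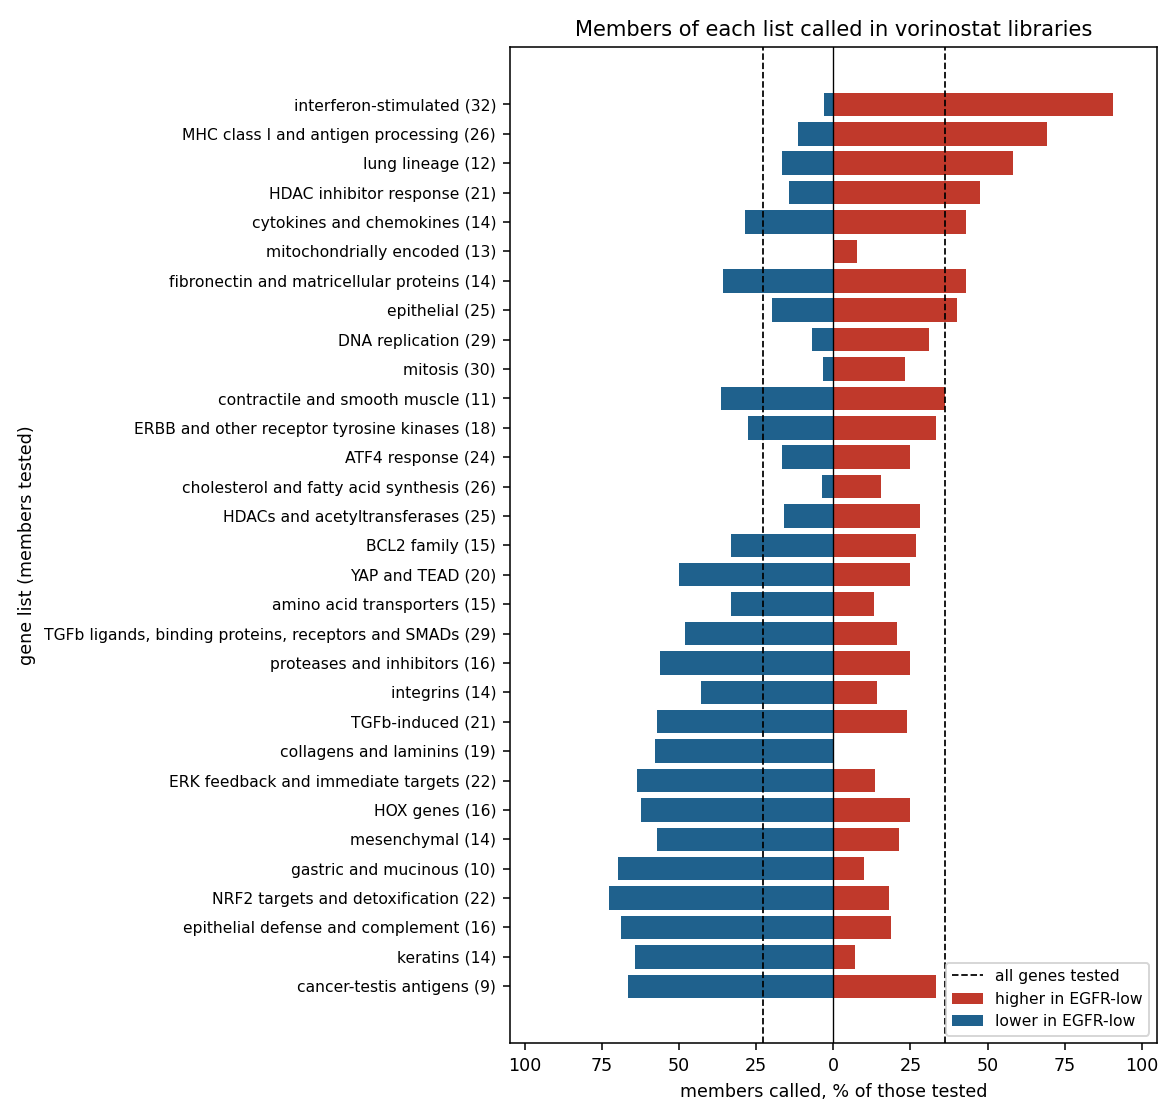
For each gene list (y axis, members tested in brackets), bars give the percent of tested members called higher (red, right) and lower (blue, left) in vorinostat-treated EGFR-low cells. Dashed lines mark all genes tested, 36.2% higher and 22.8% lower. Interferon-stimulated genes reach furthest to the right with 29 of 32, and NRF2 targets furthest to the left with 16 of 22.

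Of 15 apoptosis regulators of the BCL2 family, 4 were higher and 5 lower, against 36.2% and 22.8% of all genes. The BH3-only genes BMF and BCL2L11, which promote cell death, were higher in EGFR-low cells. BMF read 35.9, 33.6 and 32.5 FPKM against 5.49, 4.82 and 3.26 FPKM (difference 2.69, standard error 0.246, limma adjusted p = 3.82e-05). BCL2L11, the gene of BIM, read 10.7, 11.9 and 10.8 FPKM against 6.27, 4.78 and 6.28 FPKM (difference 0.85, limma adjusted p = 0.000782). Neither gene overlapped between the groups. The prosurvival genes BCL2L1, the gene of BCL-XL, at 60.8, 52.6 and 58.2 FPKM against 154, 117 and 133 FPKM (difference -1.21), and BCL2 (-1.34) were lower. The BH3-only gene HRK was lower as well (-1.31). The other members called were PMAIP1 (0.73) and MCL1 (0.63), higher, and BAX (-0.66) and BAK1 (-0.44), lower. The PMAIP1 call was lost under median-of-ratios scaling, under quantile normalization and with only the 6 libraries fitted. That of BAK1 was lost with only the 6 libraries fitted and without library 1 of both groups.

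HDACs and acetyltransferases, the family of the drug's targets, moved little. Of 25 tested, 7 were higher and 4 lower, against 36.2% and 22.8% of all genes, with a median difference of -0.01. Under median-of-ratios scaling 6 were higher and 8 lower, so no direction is given for the family. HDAC1 read 107, 88.4 and 84.9 FPKM against 96.6, 104 and 80.7 FPKM, overlapped, and was not called (difference -0.01, limma adjusted p = 0.968). HDAC2 was lower in EGFR-low cells at 61.3, 60.4 and 56.2 FPKM against 96.4, 116 and 114 FPKM (difference -0.86, limma adjusted p = 0.000138). HDAC3 was higher at 34.6, 37.1 and 35.7 FPKM against 24.6, 28.3 and 25.8 FPKM (difference 0.43, limma adjusted p = 0.00452), and at 0.26 under median-of-ratios scaling it kept its call. The groups did not overlap for HDAC2 and HDAC3. HDAC9 (1.39) and HDAC6 (0.88) were higher, and the corepressor SIN3B (-1.23) and HDAC7 (-0.71) were lower. In untreated cells 0 of the 24 members tested were called, where only 3.81% of all genes tested were called.

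Genes that respond to HDAC inhibitors were higher in 10 of 21 cases and lower in 3, against 36.2% and 22.8% of all genes. Their median difference was 0.86, and under median-of-ratios scaling 8 were higher and 3 lower. The difference here is between populations that were both labelled vorinostat. Between the populations in DMSO 11 were called higher and 3 lower, against 3807 higher and 2527 lower of all 12236 genes. CDKN1A, the gene of the cell cycle inhibitor p21, read 27.6, 15.3 and 17.5 FPKM against 21.7, 1.79 and 3.25 FPKM. EGFR-high library 1 overlapped with the EGFR-low libraries, and the difference was 1.67 with all libraries (limma adjusted p = 0.0351) and 2.33 without library 1 of both groups (limma adjusted p = 0.000734). The CDKN1A call was lost under median-of-ratios scaling (1.5, limma adjusted p = 0.0645). DHRS2, a reductase known to be induced by HDAC inhibitors, read 819, 539.7 and 608 FPKM against 86.9, 132 and 138 FPKM (difference 2.46). The metallothionein MT2A read 636, 309.7 and 289.6 FPKM against 159, 29.1 and 23.0 FPKM (difference 2.99), with library 1 the highest in each population. The 3 lower members were the anticoagulant receptor THBD (-2.70), KLF4 (-1.43) and CCND1 (-0.63), and 5 members were lower without library 1 of both groups.

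NRF2 targets and detoxification genes were mostly lower, at 16 of 22 with 4 higher and a median difference of -1.54. The background for this list and for the amino acid transporters was 22.8% of all genes lower and 36.2% higher. AKR1C2, an aldo-keto reductase, read 3.02, 7.59 and 4.86 FPKM against 299, 1189 and 893 FPKM (difference -6.86, standard error 1.01, limma adjusted p = 0.000158). AKR1C3 (-6.20) and the glucuronosyltransferase UGT1A6 (-6.88) were lower too. AKR1C genes are close in sequence and UGT1A genes share exons, so reads may have been split among them. HMOX1, heme oxygenase 1, was the largest exception at 72.5, 115 and 72.5 FPKM against 12.3, 4.75 and 3.03 FPKM (difference 3.66), followed by CBS (0.95), CYP1A1 (0.64) and ABCG2 (0.48). The calls of CBS, CYP1A1 and ABCG2 were lost under median-of-ratios scaling, which left 1 member higher and 17 lower, and those of CYP1A1 and ABCG2 under quantile normalization. Of 15 amino acid transporters, SLC7A5 (1.93) and its heavy chain SLC3A2 (1.27) were higher and 5 were lower, the glutamate transporters SLC1A3 (-4.13) and SLC1A1 (-2.54) and then SLC38A1 (-1.02), SLC7A7 (-0.87) and SLC6A6 (-0.42). SLC3A2 was 0.84 and not called (limma adjusted p = 0.0602) without library 1 of both groups.

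Cancer-testis antigens were the list with no uncalled member, with 3 of 9 higher and 6 lower. Near-identical copies such as XAGE1A and XAGE1B count as separate members here. For this list and those of proteases and of YAP and TEAD, the background was 36.2% of all genes higher and 22.8% lower. MAGEA3 read 0.337, 0.736 and 0.605 FPKM against 146, 180.3 and 137 FPKM (difference -6.64), and MAGEA6, a near-identical copy, differed by -6.40. PRAME, at 23.5, 36.9 and 32.4 FPKM against 0.681, 0.00875 and 0.0370 FPKM (difference 4.70), was higher with XAGE1A and XAGE1B. The untreated EGFR-low libraries had MAGEA3 at 118, 106 and 143 FPKM and PRAME listed at 0. Of 16 proteases and inhibitors, 4 were higher, the collagenase MMP13 (3.78), MMP11 (2.47), TIMP1 (1.89) and PLAU (1.03), and 9 lower, among them TIMP3, SERPINE2 (-5.49) and TIMP4 (-3.73). Of 20 genes linked to YAP and TEAD, 5 were higher (AJUBA at 1.48, NUAK2 at 1.07, TEAD2 at 0.94, LATS2 at 0.55 and VGLL4 at 0.53, with the calls of LATS2 and VGLL4 lost under both other scalings) and 10 lower, led by AMOTL1 (-4.69), ANKRD1 (-4.65) and tissue factor F3 (-3.65).

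Counts of proliferation and stress genes depended on library 1 and on the fit. Over all genes 36.2% were higher and 22.8% lower. In the main fit the DNA replication, mitosis, ATF4 response and cholesterol lists each had smaller shares than these in both directions. Of 29 DNA replication genes, 9 were higher and 2, CCNE1 (-0.79) and GINS4 (-0.47), lower (median difference 0.38), but 7 were higher and 5 lower (0.05) without library 1 of both groups, and 4 were higher and 2 lower with only the 6 libraries fitted. Of 30 mitosis genes, 7 were higher and 1, CCNA2, lower (median 0.35), and without library 1 only AURKB was higher and 4 were lower (-0.07). Under median-of-ratios scaling 3 mitosis genes were higher and 1 lower. AURKB, a mitotic kinase, read 65, 44.7 and 48.8 FPKM against 10.6, 19.5 and 24.1 FPKM (difference 1.55). CCNA2, the cyclin A2 gene, read 15.7, 12.5 and 11.9 FPKM against 15.5, 44.8 and 37.8 FPKM (difference -1.11, limma adjusted p = 0.0200). EGFR-high library 1 was the lowest EGFR-high library in both genes, at a level that for CCNA2 fell among the EGFR-low libraries. The CCNA2 difference was -1.67 (limma adjusted p = 0.00169) without library 1 of both groups, and it was not called in 4 of the fits that left out 1 vorinostat library (limma adjusted p of 0.0548 to 0.0855). BIRC5 (0.96) and CCNB2 (0.89) lost their call without library 1 of both groups, at 0.46 and 0.41. Among 24 ATF4 response genes 6 were higher, led by DDIT3 (2.31) and WARS (2.02), and 4 lower, STC2 (-1.82), CEBPB (-1.58), DDIT4 (-1.12) and PSPH (-1.06). Without library 1 of both groups, 3 were higher and 8 lower. ASNS, asparagine synthetase, read 332, 183 and 197 FPKM against 23.8, 89.5 and 166 FPKM (difference 1.67, limma adjusted p = 0.0299) and was 0.63 and not called (limma adjusted p = 0.272) without library 1 of both groups. It was 0.90 and not called without EGFR-high library 1 alone (limma adjusted p = 0.105). Cholesterol and fatty acid synthesis genes were largely not called, with 4 of 26 higher, PMVK (1.81), SC5D (1.18), SCD (1.09) and SREBF1 (0.58), and 1 lower, with 2 higher and 2 lower under median-of-ratios scaling and 6 higher and 3 lower with the replicate block. SCD, a desaturase (limma adjusted p = 0.0489), lost its call in 12 of its alternatives. Of 13 mitochondrially encoded genes MT-ND6 was called (2.00). With the replicate number as a block MT-CO2 (0.93) and MT-CYB (0.96) were also called higher and MT-ND1 (-0.72) lower, and mitochondrial share differed between library 1 and the others.

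Markers of other cells were low. Of 11 fibroblast markers 10 were under 1 FPKM in all 6 libraries, and their summed level was 2.09 to 3.80 FPKM in EGFR-low and 1.80 to 4.34 FPKM in EGFR-high cells. Of 12 leukocyte markers 9 were under 1 FPKM in all 6 and 2, CD3E and MS4A1, were listed at 0 in all 6. The summed level was 23.9 to 46.3 FPKM in EGFR-low against 22.8 to 28.7 FPKM in EGFR-high cells, CSF1R (1.76) and CD14 (1.54) were higher in EGFR-low cells, and the macrophage-associated CD68 was not called (0.16). Of 8 endothelial markers, 7 were in the table and summed to 6.69 to 8.4 FPKM against 14.2 to 24.3 FPKM, with KDR higher (1.90) and ESAM lower (-2.28). The part of other cells in the results was not tested.

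The same populations in DMSO, from the same fit, gave 6334 calls (51.8%). Of the 4427 genes higher under vorinostat, 3583 were also called higher in DMSO, which is 80.9% of the first list and 94.1% of the 3807 in the second. Of the 2795 lower, 2323 were also lower in DMSO, 83.1% of the first list and 91.9% of the 2527 in the second, and 0 genes were called in opposite directions. The difference itself, tested as an interaction, was called for 0 genes (0%) by limma, with 215 genes (1.76%) at an unadjusted p under 0.05 and a smallest adjusted p of 0.999. These values compare the libraries as labelled, with vorinostat libraries 2 and 3 of both populations as close to DMSO as given above. Sizes were larger under vorinostat at face value, with a median difference of 0.89 for genes called higher against 0.73 for the same genes in DMSO, and of -0.94 against -0.78 for those called lower. With DMSO libraries 2 and 3 of EGFR-low and 1 and 2 of EGFR-high cells only, the DMSO medians were 0.90 and -0.93.

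In the separate untreated experiment, 431 of 11305 genes tested (3.81%) were called between EGFR-low and EGFR-high cells, or 965 with the replicate number as a block, since same-numbered libraries there deviated together. Of the genes tested in both experiments, 3608 were called higher under vorinostat, of which 58 were also higher (1.61% of the first list and 38.9% of 149 in the second) and 52 were lower in untreated EGFR-low cells. Of 2713 called lower, 145 were also lower (5.34% and 60.4% of 240) and 53 were higher. Across 11118 genes the differences correlated at r = 0.163, a description over genes that share libraries and are not replicates, against 0.975 between vorinostat and DMSO over 12236 genes. KRT13 and EGFR, with OLFML3 and MGP, were lower in EGFR-low cells in both experiments. KRT13 was at 7.81, 7.97 and 5.25 FPKM in untreated EGFR-low against 80.8, 75.3 and 83.3 FPKM in untreated EGFR-high cells (difference -3.35, limma adjusted p = 0.000134).

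**Figure D5:**
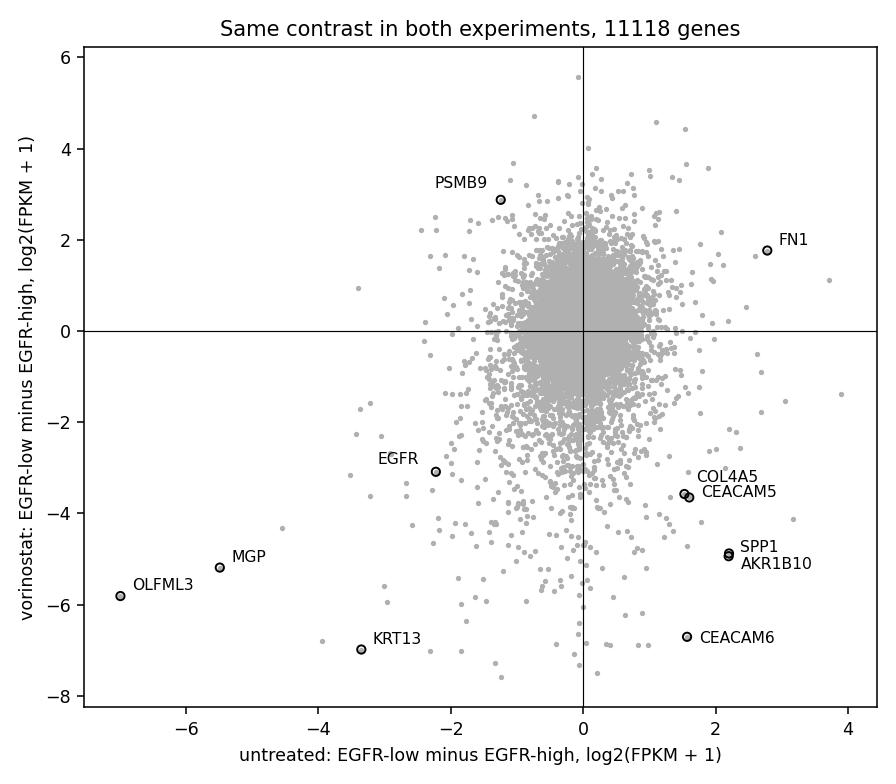
Each point is 1 of 11118 genes tested in both experiments. The x axis is the EGFR-low minus EGFR-high difference in untreated cells and the y axis the same difference under vorinostat, both in log2(FPKM + 1). The vertical spread is the wider, OLFML3, MGP, KRT13 and EGFR lie low on both axes, FN1 high on both, and CEACAM6, CEACAM5, COL4A5, SPP1, AKR1B10 and PSMB9 differ in sign.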

How the data were processed

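Libraries were made from polyadenylated RNA (Roche Kapa mRNA Hyper Prep). Per the submitters' processing notes, the authors used hg19, STAR 2.5.1b and Cufflinks 2.2.1. The deposited values were read as FPKM, which the authors had normalized to transcript length and mapped fragments. That unit was inferred from the values and from Cufflinks, although the naming speaks of counts. No filter on strand is given in the sources used here. The depth is unknown.

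Groups followed the labels. A gene entered the fit when 3 or more of the 12 libraries reached 1 FPKM. Values were fitted as log2(FPKM + 1) with limma 3.58.1 in R 4.3.3 (1 mean per group over all 12 libraries, eBayes with trend, Benjamini-Hochberg). The 9 untreated libraries were fitted separately in the same way, and levels are set side by side across experiments without a test. The members, gene lists and tests were chosen with earlier results of these data known. Named genes were EGFR, 13 genes whose products the study measured, the 12 largest differences in each direction without overlap, and up to 4 called members per list. Same-numbered vorinostat libraries of the populations deviated together only in part (r = 0.353, 0.351 and 0.163 across genes). EGFR-low vorinostat library 3 went best with EGFR-high library 2. In DMSO the values were 0.251, -0.207 and 0.285. Whether the numbers pair the libraries is unknown, so the main fit held no pairing and the replicate block was an alternative. On simulated data with 200 changed genes of 12236, the vorinostat test found 74% of genes changed by 1 log2 unit and 91% of those changed by 2, with 10 false calls and 0 of wrong sign. The simulated noise was drawn for each gene on its own. In the data 59% of genes were called and library 1 deviated across many genes together, so these rates do not carry over to the data.

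Alternatives were pseudocounts of 0.1 and 5, no filter, a filter of 5 FPKM, median-of-ratios scaling, quantile normalization, no trend, only the 6 libraries compared, a replicate block, and leaving out each library. After the data were seen, fits without the libraries that stood apart were added. Promoters are from RefSeq. Some list members are counted but not reported by name here. Summaries and figures used matplotlib 3.10.9, scipy 1.17.1, pandas 2.3.3 and numpy 2.4.6 in Python 3.11.15.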

Additional observations from a re-analysis of the deposited data

Results flagged for a closer look

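Across the 11118 genes tested in both experiments, 103 were called in opposite directions under vorinostat and in untreated cells with no overlap between EGFR-low and EGFR-high libraries in either, and 6 of them were named by the rule. All 3 EGFR-low libraries lay on the opposite side of the EGFR-high libraries in the 2 experiments, and the difference between the experiments was not tested. CEACAM6 differed by -6.71 under vorinostat and by 1.57 in untreated cells (limma adjusted p = 0.00688), where it read 842, 765 and 777 FPKM in EGFR-low against 297, 286 and 225 FPKM in EGFR-high libraries. CEACAM5 differed by -3.65 and 1.60, SPP1 by -4.94 and 2.19, the basement membrane collagen gene COL4A5 by -3.58 and 1.53, and AKR1B10, an aldo-keto reductase, by -4.88 and 2.2. PSMB9, the immunoproteasome subunit, went the other way, at 2.88 under vorinostat and -1.25 in untreated cells (limma adjusted p = 0.0350).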

How the results depend on the processing

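The count of genes called under vorinostat (7222) stayed within 1.5 times of itself in all 12 alternatives with other settings or groups of libraries (5774 to 8288) and in the 6 fits that left out 1 library (6250 to 7524). EGFR kept its direction and call (-3.26 to -2.85, and -3.42 to -2.91 with 1 library left out). With the replicate number as a block, 7632 genes were called, 4700 of them higher, and no gene named by the rule changed its call. The DMSO count ranged from 5005 to 7740, and from 4925 to 6194 with 1 library left out. The interaction gave 0 genes in the 12 fits with 1 library left out and in the other alternatives, except that without a filter on low values 1 gene was called, AC114494.1, at 0.118 FPKM or less in every library. The untreated count moved from 431 to 660 without a filter, 206 with a filter of 5 FPKM, 965 with the replicate block, and 205 to 337 with 1 library left out (under 1.5 times only without EGFR-low untreated 2). Of 2736 values of 153 named genes, 2668 kept direction and side of the threshold, 56 lost the call, 3 gained it and 9 changed sign, in 14 genes. The sign changed only for genes that were not called, COL1A1 (-0.0691 with median-of-ratios scaling, -0.0835 with quantile normalization, and -0.120 to 0.323 with 1 library left out, negative in 3 of those fits) and HDAC1 (-0.110 to 0.0709 with 1 library left out, positive in 4 of those fits). The cause was not tested. A pseudocount of 0.1 or 5 widened or narrowed the differences of genes near 0 FPKM in a population by over 1.5 times. Depth is unknown, so values near 0 cannot be told from 0.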

Other observations

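EEF1A1, a translation elongation factor gene that every cell uses, was listed at 0 in EGFR-high vorinostat library 2 and read 4133 and 6320 FPKM in libraries 1 and 3. NUPR1, a stress-induced chromatin protein gene, was listed at 0 in EGFR-high vorinostat library 1 and read 14.7 and 32.8 FPKM in libraries 2 and 3. No fold is given against a group listed at 0.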
